A study of Ovis aries with 6 samples.

Results

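The last 6.177 Mb of sheep chromosome 20, from 45 Mb to the last CpG with reads at position 51176835 (build Oar_v3.1), held 790 of the 154851 low-methylated regions listed by the authors on autosomes 1 to 26. Members were chosen by merging the authors' lists of unmethylated regions (UMRs) and low-methylated regions (LMRs) of fetuses and lambs wherever entries overlapped by at least 1 base, and keeping those on chromosome 20 with a midpoint at 45 Mb or beyond. The 29 differentially methylated region (DMR) entries and the 8 DNA methylation valley (DMV) entries of the same span were added. These lists were themselves selected on the methylation levels of the animals compared here. A region's presence in a list, and a difference in a region listed in 1 stage or in a DMR, are therefore given as descriptions and not as findings.

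The DNA came from perirenal fat, which surrounds the kidneys, and the sheep were pure-bred Merino, all wild type and untreated. One group was 3 fetuses at 132 days post conception, with term at 150 days, and the labels call their depot brown adipose tissue. The other group was 3 lambs at 89 days after birth by the sample labels, or 80 days by the description of the series, and the labels call their depot white adipose tissue. Each library came from 1 animal, so the 6 animals were separate biological replicates. The animals' identifiers end in a different tag in fetuses and in lambs, and no source used here explains the tags, so stage and whatever the tag marks cannot be told apart. The tissue was sequenced in bulk, so a change within a cell type and a change in the mix of cell types cannot be told apart. No genes could be checked as markers of brown or white fat in methylation counts read without a gene annotation of this build, and regions are named by position only.

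In mammalian genomes most CpG dinucleotides are methylated, and the exceptions carry regulatory information. UMRs are mostly CpG-rich and often lie at promoters and CpG islands. LMRs are CpG-poor, keep an intermediate methylation level, and often coincide with distal regulatory elements bound by transcription factors. DMVs are wide domains almost free of methylation, known for lying around genes of developmental regulators. In sheep the perirenal depot is rich in brown, heat-producing fat around birth and turns to white, lipid-storing fat in the weeks that follow. Whole-genome bisulfite sequencing reads methylation by converting unmethylated cytosines. The level of a region here is the percentage of reads that were methylated, with reads summed over all of its CpGs in 1 animal. A read over several CpGs counts once at each of them. Reads given for a region, a DMR entry or a set of CpGs are such sums, so separate reads are fewer.

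Across autosomes the animals had 5.22 to 8 reads per listed CpG position, and in the span 5.78 to 8.99. Within the span, 4 neighbouring windows of 50 kb, from 50400001 to 50600000, carried raised coverage in each of the 6 animals. Their coverage was 1.63 to 2.29 times the mean of chromosome 20 before 45 Mb in the same animal, against 1.02 to 1.14 times for the rest of the span. None of the 900 windows before 45 Mb passed 1.5 times in all 6 animals. The 200 kb block held 39 of the 790 regions, among them the widest 2, and no DMR entry. The class levels, their contrasts and the UMR descriptions were also computed without it, a comparison added after the data were seen.

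The span was dense in CpGs and in listed regions, and most regions were shared between the stages. It held 22643 covered CpGs per Mb against 10608 on the rest of chromosome 20 and 9546 on the other autosomes, and 128 merged regions per Mb against 81 and 62.6. Counted per 1000 CpGs the order changed, with 5.65 regions in the span, 7.64 on the rest of chromosome 20 and 6.56 on the other autosomes. The ends of equal length of the other acrocentric autosomes (4 to 26), taken at their highest coordinates, were close to the span in both counts, with 19913 CpGs and 121 regions per Mb. Of the 790 regions, 405 were LMRs in both stages, 105 were UMRs in both, 15 were UMRs in fetuses and LMRs in lambs, and 15 were the reverse. A further 132 were LMRs in fetuses only, 117 were LMRs in lambs only, and 1 was a UMR in lambs only. The 250 regions listed in 1 stage were 31.6% of the members, against 32.4% on the rest of the chromosome and 37.8% on the other autosomes. DMR entries were the most concentrated class, at 36.7 per 1000 merged regions against 11.2 on the rest of chromosome 20, 6.33 on the other autosomes and 10.9 at the other acrocentric ends.

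**Figure D1:**
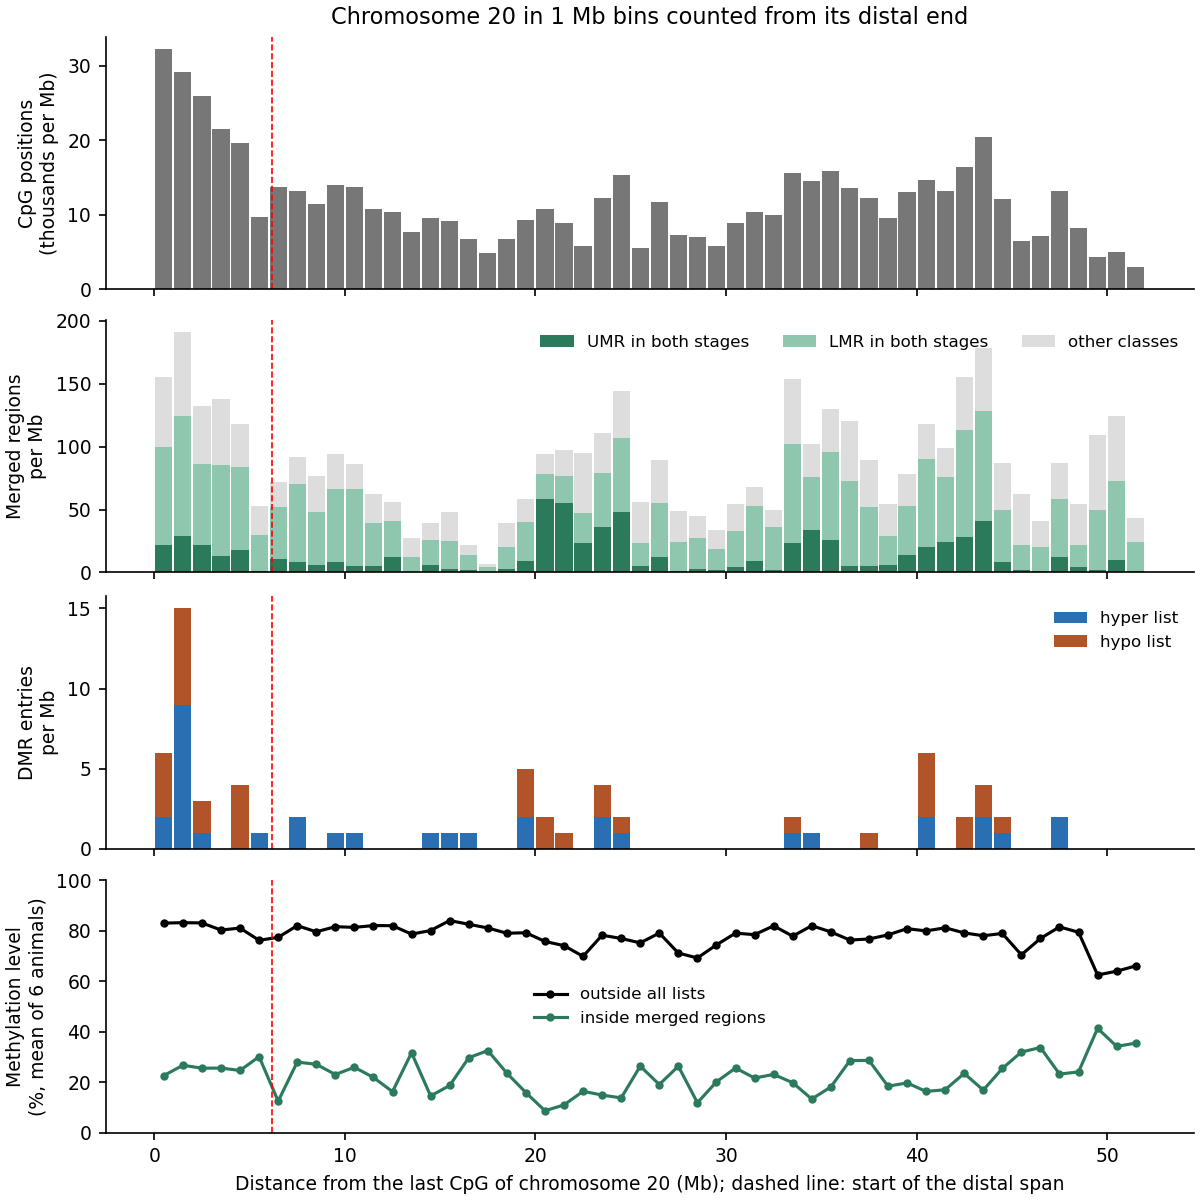
Chromosome 20 in 1 Mb bins by distance from its last CpG with reads (x axis, Mb). The panels show CpG positions, merged regions by class, DMR entries by list, and the methylation level in percent (mean of 6 animals) outside all lists and inside merged regions. The bins left of the dashed line are the distal span, where the bin between 1 and 2 Mb from the end holds 15 DMR entries.

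Regions ran from 35 to 17113 bases with a median of 431 bases, and the 2 main classes kept the contrast that defines them. UMRs of both stages had a median width of 1457 bases and 57 CpGs, and their levels, as means over the 6 animals, ran from 1.73% to 41.2% with a median of 15.8%. LMRs of both stages had a median width of 444 bases and 11 CpGs, and levels from 4.68% to 50.2% with a median of 34.9%. Among the UMRs, wider regions tended to lower levels (Spearman's rho -0.26 over 105 regions) and regions with more reads per CpG to higher ones (rho 0.369, and 0.429 over the 95 UMRs outside the block of raised coverage), while CpG density showed a rho of -0.0324. These rho values describe regions that share libraries and are not replicates.

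The 3 lowest levels belonged to UMRs of 1569 to 3037 bases. The region chr20:46916477-46918045, with 112 CpGs, read 1.86%, 1.40% and 1.39% in the fetuses and 3.18%, 1.80% and 0.748% in the lambs. The region chr20:49491774-49494065, with 136 CpGs, lay between 1.58% and 2.38% in every animal. In both the stages overlapped. The third, chr20:49461540-49464576, with 183 CpGs, read 3.53%, 3.23% and 3.08% in the fetuses and 2.00%, 1.90% and 2.67% in the lambs. Here the lambs were all below the fetuses, with an adjusted p of 0.3264 in the limma-moderated quasi-binomial test described below.

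At the other extreme lay regions that were listed in both stages at levels of about 50%. The highest was chr20:48708079-48708421, an LMR in fetuses and a UMR in lambs, with 36 CpGs and 3.78 reads per CpG and animal. Its levels were 83.3%, 42.5% and 65.1% in the fetuses and 28.5%, 32.3% and 77.3% in the lambs, so the animals of each stage were spread over 40.8 and 48.8 percentage points and the stages overlapped. The LMR chr20:45878436-45879723, with 9 CpGs over 1288 bases, was even across animals at 46.9% to 54.6%. The LMR chr20:49924970-49925604 ranged from 40.7% to 66.7%.

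UMRs of the span carried more methylation than UMRs elsewhere, in all 6 animals and in both stages. The summed level of the 105 UMRs was 15.8%, 15.1% and 15.2% in the fetuses and 15.2%, 16.4% and 15.5% in the lambs, against 8.55% to 9.57% for the 602 UMRs on the rest of chromosome 20. Within an animal, the span exceeded the rest of the chromosome by 6.49 ± 0.324 points (SD, n = 6), and the other autosomes by 6.37 ± 0.31 points. Both differences had the same sign in 6 of 6 animals (exact two-sided sign-flip permutation test, p = 0.031, the smallest that 6 animals allow). Of the 105 UMRs, 41 (39%) had a level of 20% or more, against 13.6% on the rest of chromosome 20 and 15.6% on the other autosomes, and 34 lay under 10%. Leaving out the block of raised coverage gave a difference of 6.74 points from the rest of the chromosome.

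The other classes differed in the same direction by smaller amounts. LMRs of both stages read 32.7%, 32.1% and 31.8% in the fetuses and 33.6%, 34.2% and 32.4% in the lambs, which was 2.69 ± 0.264 points (SD, n = 6) above the rest of chromosome 20. CpGs inside entries of both DMV lists exceeded those of the rest of the chromosome by 1.33 ± 0.187 points (1.45 without the block of raised coverage), and CpGs outside all lists by 3.1 ± 0.265 points. Each held in 6 of 6 animals (exact sign-flip permutation p = 0.031 for each of the 3). CpGs outside all lists read 81.3% to 82.7% in the span. Higher levels were thus also measured outside the listed regions. The sizes depended on the CpGs used. With at least 10 reads required in each animal, the differences from the rest of chromosome 20 were 9.14 points for UMRs and 22 points for LMRs. That setting kept 545 UMR and 100 LMR CpGs of the span, of which 467 and 86 lay in the block of raised coverage.

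Set against the ends of the other acrocentric autosomes, the gap narrowed. UMRs of the span stood 2.59 ± 0.22 points above UMRs of those ends in 6 of 6 animals (exact sign-flip permutation p = 0.031). LMRs were higher in 4 of 6 animals, by 0.475 ± 0.578 points (exact sign-flip permutation p = 0.125). CpGs outside all lists were higher by 1.23 ± 0.098 points in 6 of 6. The 29.6% of UMRs at 20% or more in those ends also lay between the span and the rest of chromosome 20. These tests cover the spread between animals and not that between regions.

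**Figure D2:**
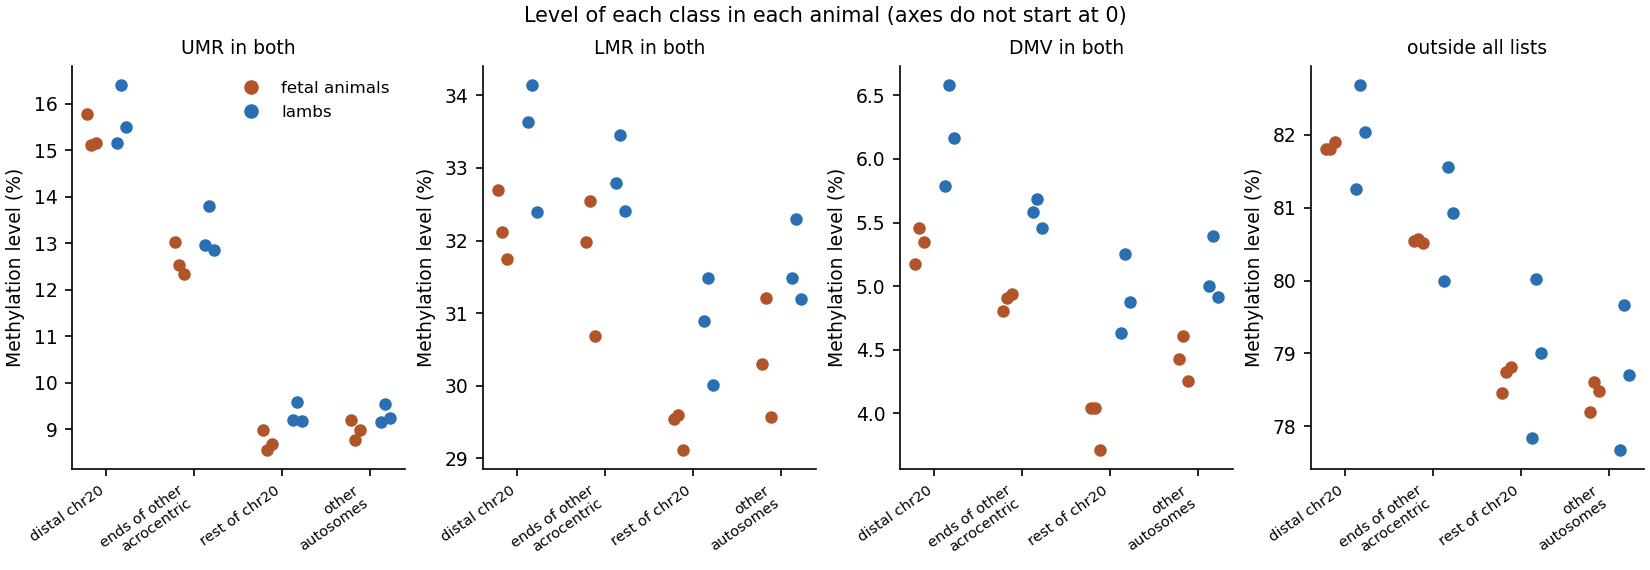
Methylation level in percent of each class in each animal (points, with fetuses left and lambs right in each scope) for distal chromosome 20, the ends of the other acrocentric autosomes, the rest of chromosome 20 and the other autosomes. The axes differ between panels and do not start at 0. For UMRs the 6 animals of the distal span lie at 15.1% to 16.4%, above all animals of the other scopes.

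The UMRs were also compared by width. Widths were split after the values were seen. Of the span's UMRs, 23.8% were narrower than 1 kb, against 8.97% on the rest of the chromosome. UMRs of 1 to 2 kb averaged 18.3% in the span (44 regions) and 8.95% elsewhere on the chromosome (246 regions), a difference of 9.35 ± 0.401 points (SD, n = 6). UMRs of 2 to 5 kb averaged 15.8% against 7.86%, and UMRs of 5 kb or more 12.4% against 10.0%. For these 3 classes the span was higher in every animal (exact sign-flip permutation p = 0.031 each). The UMRs under 1 kb, at 18.5% against 16.8%, did not pass (exact sign-flip permutation p = 0.0625). Without the block of raised coverage the differences were 3.08 ± 1.99, 8.72 ± 0.422, 4.51 ± 1.31 and 4.64 ± 0.36 points from the narrowest to the widest class (SD, n = 6), each in 6 of 6 animals (exact sign-flip permutation p = 0.031). The class of 2 to 5 kb thus moved from 15.8% to 12.4% when its 2 UMRs of the block were left out. Along the span the median UMR level was 22.5% in the last 1 Mb (22 regions), and in the 4 Mb before it, moving away from the end, 16.5%, 13.4%, 15.6% and 14.7%. The range within the last Mb was wide, from 6.15% to 37.1%. In it the 10 UMRs of the block of raised coverage had a median of 15.3% and the other 12 one of 25.6%.

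Edges were similar around UMRs and LMRs. In the first 500 bases outside the UMRs the level was 75.9% ± 0.618 in fetuses and 75.8% ± 1.23 in lambs (SD, n = 3 each), and in the next 500 bases 82.8% and 83.0%. Outside the LMRs the first 500 bases read 75.2% in fetuses and 75.6% in lambs, and the next 500 bases 82.1% and 82.5%. In the first bin outside the LMRs all lambs lay above all fetuses, by 0.342 points (exact permutation p = 0.1, the smallest that 3 against 3 animals allow), and in the other bins the stages overlapped. Away from chromosome 20's end the first 500 bases around UMRs read 72.8% and 73.3%, so the flanks of the span were also higher.

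Between the stages, the class levels of the span moved little. UMRs of both stages averaged 15.3% ± 0.369 in fetuses and 15.7% ± 0.653 in lambs, a difference of 0.343 points (SD, n = 3 each, exact two-sided permutation p = 0.6). Without the block of raised coverage the 95 remaining UMRs read 15.2%, 15.7% and 14.7% in the fetuses and 15.8%, 17.5% and 15.8% in the lambs. The difference was then 1.19 points, with the lambs all above the fetuses (exact permutation p = 0.1). LMRs of both stages averaged 32.2% ± 0.475 in fetuses and 33.4% ± 0.908 in lambs, with overlap between stages (exact permutation p = 0.2). CpGs in both DMV lists read 5.18%, 5.46% and 5.35% in the fetuses and 5.78%, 6.58% and 6.16% in the lambs, so that the stages did not overlap (difference 0.849 points, exact permutation p = 0.1). Of the reads of these CpGs, 66.7% came from the valley in the block of raised coverage. Without it the levels were 5.37%, 6.08% and 5.23% in the fetuses and 5.58%, 6.45% and 6.56% in the lambs, with overlap (difference 0.637 points, exact permutation p = 0.2). No class reached p under 0.05, which 3 against 3 animals cannot do. The stage difference of the span was close to that of the rest of chromosome 20 for all 4 classes, with values from -0.23 to -0.126 points (exact permutation p of 0.5 to 0.7). Without the block of raised coverage the value for UMRs turned to 0.613 points (exact permutation p = 0.4).

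Region by region, 775 of the 790 members could be tested, and 2 were called. Testing needed at least 3 CpGs and 10 reads summed over CpGs in each animal. The 15 left out were 8 LMRs of fetuses only and 7 of lambs only. The test was a quasi-binomial model of methylated and unmethylated reads with its dispersion moderated by limma, adjusted by Benjamini and Hochberg over all 152496 autosomal regions tested, and a region was called at 10 points or more with an adjusted p below 0.05. On all autosomes 40 regions were called, which is 0.0262% of those tested. Listing used the same contrast in both called regions, so nothing is read from that count. Neither was called by limma on log ratios, by the edgeR quasi-likelihood test, or when CpGs needed 5 reads in each animal. Leaving out 1 animal at a time gave 1 to 3 calls in the span.

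The higher level in lambs was at chr20:50040136-50041184, 1049 bases with 60 CpGs, which was a UMR in fetuses and an LMR in lambs. Its levels were 31.9%, 34.3% and 30.6% in the fetuses and 61.3%, 50.5% and 61.7% in the lambs. The fetuses lay within 3.68 points of each other and all lambs lay above them. The difference was 25.6 points (limma-moderated quasi-binomial test, adjusted p = 0.01166), and limma on log ratios gave an adjusted p of 0.3032. Its flanks differed little on average: the 1 kb before it differed by -0.455 points and the 1 kb after it by 0.892 points. Split into 4 consecutive sets of 15 CpGs, fetuses were at 25.6%, 32.3%, 45.7% and 30.3%, and lambs at 55.2%, 71.7%, 56.9% and 52.9%. The lambs disagreed in the last 2 sets. In the third set, lamb 2 read 27.1% while the other lambs read 72.1% and 71.4%. In the last, lamb 2 read 78.1% against 36.2% and 44.4%. Lamb 2 was thinly covered there, with 0 to 7 reads per CpG in the third set and 0 to 6 in the last.

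The lower level in lambs was at chr20:50309110-50309799, 690 bases with 46 CpGs, the one UMR listed in lambs only. Its levels were 58.7%, 56.6% and 56.6% in the fetuses and 29.3%, 41.5% and 37.5% in the lambs. The fetuses spanned 2.18 points and the lambs 12.2 points, with no overlap. The difference was -21.2 points (limma-moderated quasi-binomial test, adjusted p = 0.02287). The call was lost without fetus 1 (adjusted p = 0.1119 in the same test), fetus 3 (0.05529), lamb 1 (0.09235) or lamb 2 (0.05135). Split into 4 sets of 11 or 12 CpGs, each set was lower in lambs, with differences of -30.5, -23.2, -15.5 and -20.8 points. The 1 kb before it and the 1 kb after it differed by -1.62 and -1.15 points. Each of these 2 regions contains an entry of one deposited DMR list, the hyper list for the first region and the hypo list for the second.

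**Figure D3:**
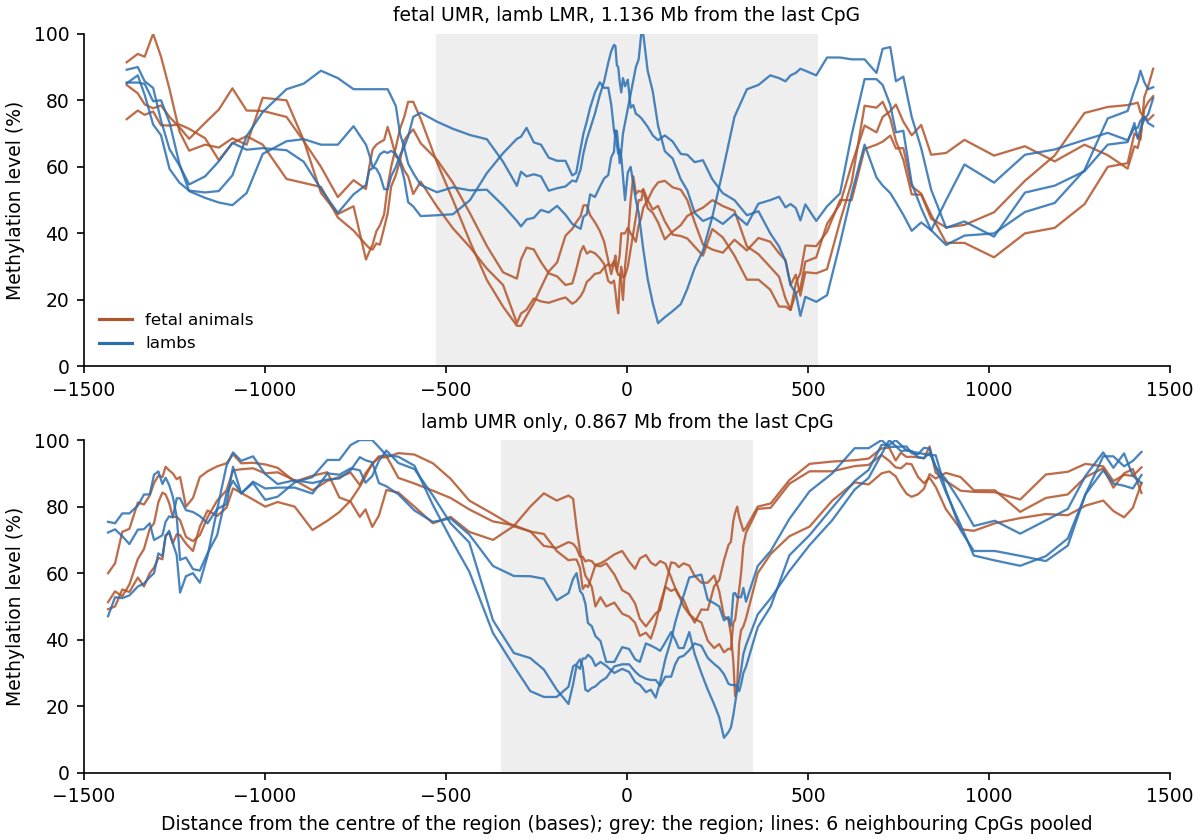
Methylation level in percent along the 2 called regions against distance from the region's centre in bases, 1 line per animal, each point pooling 6 neighbouring CpGs with at least 10 reads. Grey marks the region. The upper region was listed as a UMR in fetuses and an LMR in lambs. In it the fetal lines lie below the lamb lines over the left part. Right of the centre, fetal lines cross the lines of each lamb. In the lower region, a UMR of lambs only, the lamb lines lie mostly below the fetal lines, and outside both regions the lines of the stages intermingle.

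Among the 540 regions listed in both stages, differences between the stages were spread in both directions. Of these, 327 were higher in lambs and 213 lower, with a median difference of 1.21 points against 0.778 points over all autosomes. The animals of the stages did not overlap in 50 higher and 35 lower regions, together 15.7%, against a background of 13.9% over all autosomes, made up of 9.03% higher and 4.92% lower. That share is near the background. An unadjusted p under 0.05 was found for 92 of the 540, or 17%, against a background of 10.4%. The share was 16.4% without the block of raised coverage, and 13.5% at the other acrocentric ends. For the UMRs of both stages the share was 25.7%, and 24.2% without the block, against 13.8% on all autosomes and 17.7% at the other acrocentric ends. For the LMRs it was 12.6%, against 8.78% and 10.5%. The span's regions also had more reads summed over CpGs, with a median of 119 per animal against 90.5 over all autosomes. Its UMRs, however, had fewer, with 410 against 485. The part of depth in these shares was not tested.

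After the called region, the largest differences toward higher levels in lambs, among regions of both stages without overlap, did not pass the adjusted test. The UMR of fetuses and LMR of lambs at chr20:50073986-50074684 lies nearby, toward the chromosome's end. It read 26.2%, 47.9% and 43.1% in the fetuses and 57.5%, 67.1% and 52.6% in the lambs (difference 19.98 points, limma-moderated adjusted p = 0.1214). The LMR chr20:46435696-46436510 read 32.1%, 35.5% and 18.7% against 45.8%, 44.4% and 49.5%. The LMR chr20:48251414-48251752 read 39.3%, 30.8% and 32.7% against 54.5%, 54.9% and 45.7%. Their differences were 17.85 and 17.46 points, and lambs were above fetuses throughout. The LMR chr20:50456764-50457045, with a difference of 17.47 points, lies in the block of raised coverage. Its fetuses were tight, at 21.4%, 23.8% and 22.9%, and its lambs wide, at 37.1%, 55.5% and 27.8%.

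The 5 largest differences toward lower levels in lambs ran from -17.7 to -14.6 points, and none passed the adjusted test. The LMR chr20:48676434-48677094 read 52.3%, 46.2% and 54.1% in the fetuses and 33.6%, 25.6% and 40.5% in the lambs (limma-moderated adjusted p = 0.1992). The region chr20:48049590-48050823, an LMR in fetuses and a UMR in lambs with 50 CpGs, read 52.6%, 42.9% and 55.0% against 41.6%, 25.5% and 35.9%. The LMR chr20:48146930-48147670 was the most even, at 45%, 44% and 42.9% against 34.6%, 26.1% and 27.4%. The LMR chr20:49365540-49366565, at 47.4%, 47.9% and 60.1% against 40.1%, 32.3% and 39.0%, overlaps a hypo DMR entry. The LMR chr20:47306963-47307511, with 8 CpGs, read 44.2%, 64.7% and 44.9% against 37.5%, 32.7% and 38.3%.

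Regions listed in 1 stage mostly differed in the direction that the listing favours. Of the tested LMRs of fetuses only, 119 were higher in lambs and 5 lower. Of the tested LMRs of lambs only, 100 were lower in lambs and 10 higher. The 132 LMRs of fetuses only had a summed level of 38.3% ± 1.17 in fetuses and 52.0% ± 2.85 in lambs, and the 117 LMRs of lambs only 50.6% ± 1.94 and 38.4% ± 0.998 (SD, n = 3 each). Neither stage's unlisted level reached that of CpGs outside all lists. The extremes had few CpGs. The fetal LMR chr20:49111030-49111265, with 6 CpGs, read 43.6%, 31.3% and 19.5% in the fetuses and 69.4%, 75.9% and 69.7% in the lambs. The fetal LMR chr20:50084968-50085174 had a difference of 32.4 points and chr20:50368626-50368706 one of 30.8 points. The lamb LMR chr20:47043172-47043381 read 73.7%, 83.7% and 72.5% in the fetuses and 40.4%, 53.1% and 46.5% in the lambs. The lamb LMRs chr20:49933692-49933996 and chr20:47638432-47638687 had differences of -29.8 and -23.8 points.

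**Figure D4:**
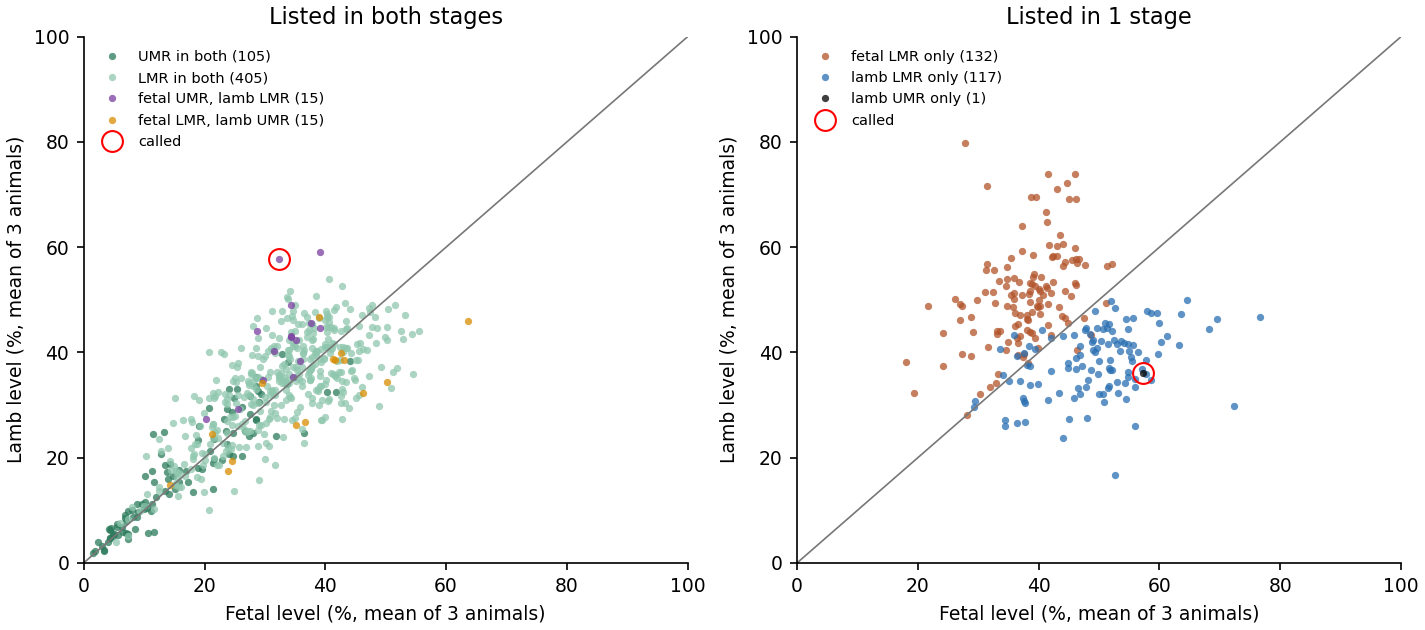
Level in lambs against level in fetuses (percent, means of 3 animals each) for regions listed in both stages (left) and in 1 stage (right), 1 point per merged region, coloured by class. The grey line marks equal levels and red circles mark the 2 called regions. Regions of both stages lie on either side of the line, with 327 above and 213 below it, whereas the regions of 1 stage lie mostly on the side that their listing fixes.

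In some regions the single animals of a stage ranged over more points than the largest difference between stage means, which was 40.2 points. A range of single animals and a difference of means are unlike measures. The widest ranges were in 3 LMRs listed in fetuses only, each with 6 to 8 CpGs. At chr20:50346678-50346824 the lambs read 28.9%, 85.1% and 56.0%, at chr20:48310794-48310878 they read 63.9%, 10.0% and 47.5%, and at chr20:47982978-47983062 they read 63.3%, 63.6% and 12.5%. The order of the lambs differed between the 3 regions. The fetuses ranged over 18.0, 27.6 and 14.1 points in the same regions. The animal with the fewest reads, summed over CpGs, had 50, 20 and 16 in the 3 regions. Per CpG and animal the regions had 9.87, 7.8 and 4.35 reads, against 7.51 for all CpGs of the span. The part of counting error in these ranges was not tested.

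The span held 4 valleys, each listed in both stages with edges that differed by at most 300 bases. The widest ran from 50495751 to 50512650 in the fetal list, 16900 bases with 889 CpGs, and ranked 16 of 518 by width in that list and 10 of 466 in the lamb list. Its levels were 5.35%, 5.43% and 5.67% in the fetuses and 6.21%, 7.12% and 6.68% in the lambs. The lambs were all above the fetuses, by 1.19 points on average (exact permutation p = 0.1, the smallest possible). The valley lies inside the block of raised coverage, and the UMR that contains it, chr20:50495600-50512712, was the widest member, with 891 CpGs and 11.7 reads per CpG and animal.

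The other valleys were narrower and had overlapping stages. A pair lies within 3 kb of each other, at 47937051 to 47944150 and 47946851 to 47952050. The first read 6.44%, 4.96% and 4.12% in the fetuses and 5.32%, 6.59% and 5.63% in the lambs, and the second 4.23%, 6.55% and 5.29% against 5.47%, 5.63% and 6.97%. The UMRs that contain them, chr20:47936890-47945080 and chr20:47945992-47952340, were among the 5 widest members. The last, at 49399151 to 49404550, averaged 7.11% ± 0.968 in fetuses and 8.64% ± 1.13 in lambs (SD, n = 3 each, exact permutation p = 0.2). All these valley levels use the edges of the fetal list, and the differences depended on that choice. With the edges of the lamb list the last valley averaged 6.29% and 6.85% (exact permutation p = 0.5). The second valley of the pair then differed by 1.45 points in place of 0.669, and the widest valley by 0.938 in place of 1.19.

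Not all wide members were valleys. The UMR chr20:50404938-50415737, 10800 bases with 503 CpGs, read 25.3%, 18.1% and 20.7% in the fetuses and 18.5%, 17.8% and 20.6% in the lambs. It overlaps no DMV entry, lies in the block of raised coverage and was more methylated than the wider valley in the same block. The UMR chr20:49247912-49254802 was wide with few CpGs, 97 over 6891 bases, and ranged from 8.22% to 16.8%. The stages overlapped in both.

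The 29 DMR entries of the span were 13 of the hyper list and 16 of the hypo list, out of 1022 autosomal entries. In 12 of the 13 hyper entries the mean of the lambs was above that of the fetuses, and in 16 of the 16 hypo entries it was below. The exception was the hyper entry at 49797394 to 49797563, with 4 CpGs, at 71.4%, 66.7% and 78.6% in the fetuses and 75.7%, 73.7% and 52.0% in the lambs. The median difference was 14.1 points for hyper and -19.1 points for hypo entries. Animals of the stages did not overlap in 4 hyper and 11 hypo entries, against 60.7% of 524 hyper and 57.5% of 489 hypo entries of all autosomes with reads in each animal. A difference of less than 10 points was found in 5 hyper and 3 hypo entries of the span. Since the entries were selected on this contrast, these counts carry no test.

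The entries were short, with a median of 8 CpGs in the hyper and 8.5 in the hypo list. Those in the called regions had the most CpGs and the most reads summed over them, which does not make them the deepest per CpG. The entry at 50040326 to 50040921 had 48 CpGs and 308 reads per animal summed over them. The entry at 50309245 to 50309763 had 41 CpGs and 319 reads counted in the same way. Among the rest, the hypo entry 46568586 to 46568946, in a region that was an LMR in fetuses and a UMR in lambs, read 31.6%, 27.7% and 37.2% in the fetuses and 15.5%, 5.75% and 11.4% in the lambs. The hypo entry 50258664 to 50258883, at the LMR of lambs only chr20:50258553-50258852, read 75%, 67.3% and 54.5% against 43.9%, 42.7% and 44.3%. The hyper entry 50335639 to 50335810, outside all listed regions, read 44%, 44.9% and 43.5% against 67.4%, 61.5% and 72.2%. In all 3 the stages were apart. The largest difference belonged to the hypo entry 49545777 to 49545791, with 3 CpGs and a mean of 13 reads per animal summed over them. This entry read 100%, 85.7% and 86.7% against 60.0%, 63.6% and 30.8%.

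Of the 6 runs in which entries followed each other at gaps under 50 kb, 3 held both directions and 3 held 2 entries of 1 direction, 2 of the 3 being hypo. Between 49293220 and 49367818, a stretch of 74.6 kb, 4 hyper and 2 hypo entries followed each other. In it the hypo entry 49366329 to 49366401 averaged 77.9% ± 13.2 in fetuses and 41.3% ± 5.81 in lambs (SD, n = 3 each). The next entry, the hyper entry 49367576 to 49367818, averaged 36.9% ± 4.92 and 43.6% ± 4.77, with overlap between the stages. Between 50309245 and 50335810, 2 hypo entries were followed by 2 hyper entries within 26.6 kb, and in all 4 the stages did not overlap. Between 49999374 and 50040921, 2 hypo entries were followed by the hyper entry in the first called region. Of the 29 entries, 7 hyper and 11 hypo overlapped a merged region, and the other 11 lay outside all of them.

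**Figure D5:**
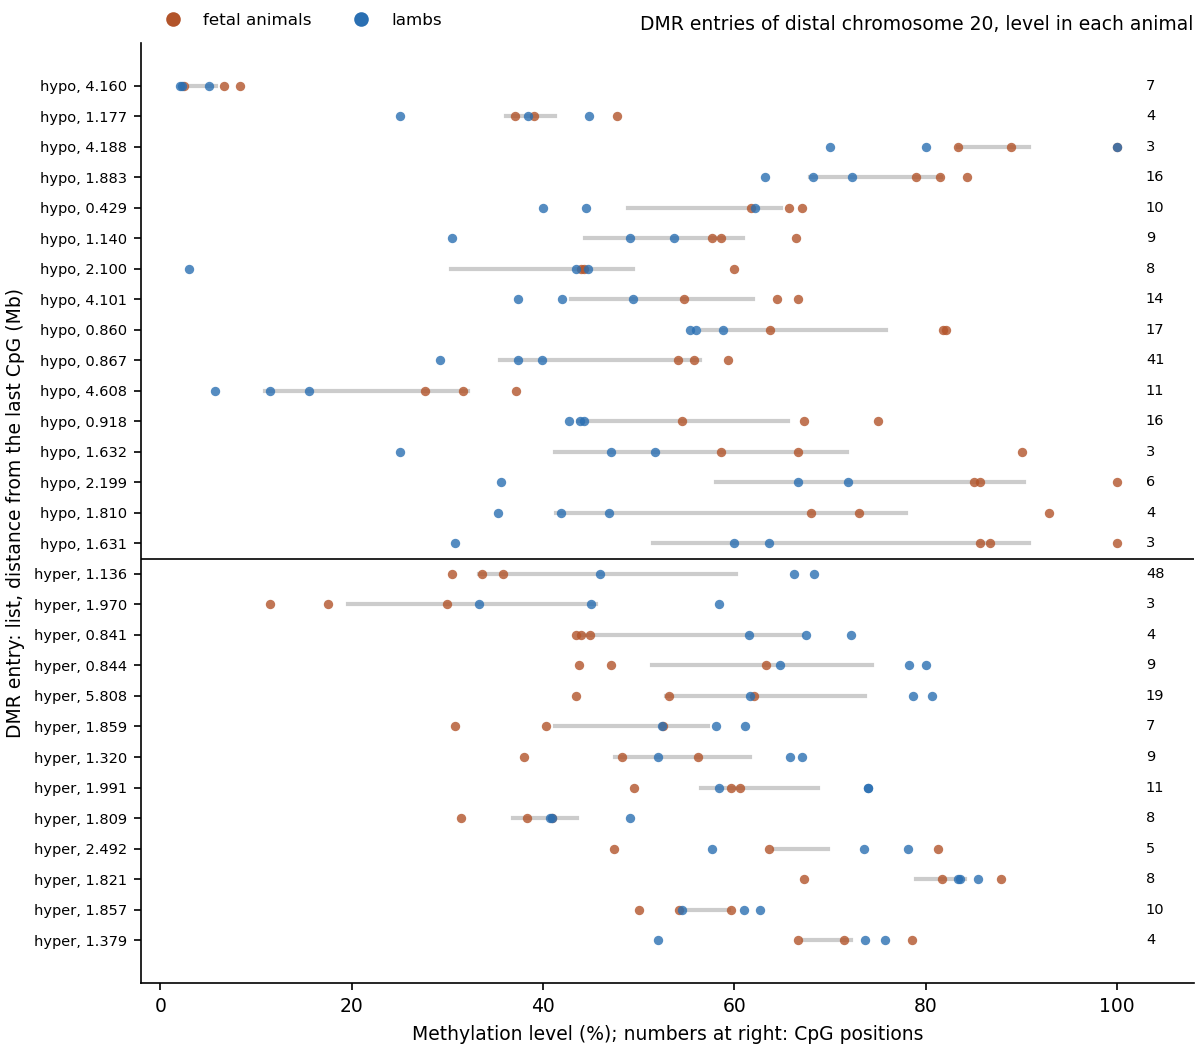
Methylation level in percent in each animal (points) for the 29 DMR entries, labelled by list and by distance from the last CpG in Mb, with a grey bar between the stage means and the number of CpGs at the right. Hypo entries are above the black line and hyper entries below it. Lambs lie left of fetuses in most hypo entries and right of them in most hyper entries, and the stages do not overlap in 11 hypo and 4 hyper entries.

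The lower limit of the span falls in a sparse stretch. The last regions outside it were the LMR chr20:44971304-44971704, at 38.4% in fetuses and 29.8% in lambs, and chr20:44985070-44986033, at 37.9% and 34.0%. The first regions inside were the LMR chr20:45071465-45072160, at 20.1% and 20.8%, and the fetal LMR chr20:45098212-45098614, at 46.2% and 57.7%.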

How the data were processed

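Whole-genome bisulfite libraries of 6 animals were analysed. The authors deposited a table of methylated and covering read counts per CpG position, and lists of UMRs, LMRs, DMVs and DMRs as positions with no score. Per the labels, reads were mapped to Oar_v3.1, and the submitters' processing notes name BWA and Picard. No source used here names the callers of these lists or the samples they used. Whether counts can hold reads from repeated sequence was not tested.

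Listed CpG positions were at least 2 bases apart, so each CpG had 1 row. List starts were converted from 0-based to 1-based. Entries of the 4 UMR and LMR lists were merged at an overlap of 1 base on autosomes 1 to 26. Levels are summed methylated over summed covering counts. Regions with at least 3 CpGs and 10 reads per animal, summed over CpGs, were tested with a quasi-binomial model. It was moderated by limma 3.58.1 (R 4.3.3), with the dispersion not below 1. edgeR 4.0.16 and limma on log2 ratios were alternatives. The script was tested on simulated data, with 50 autosomal regions shifted at each size. Shifts of 10, 20, 30 and 40 points were called in 4%, 14%, 20% and 50% of them. In the same run, with 152496 regions simulated, 4 regions without a shift were called. A region without a call may therefore still differ, and a call may be false. Classes were compared with exact permutation tests (Python 3.11.15). Named regions were every called region, DMV and DMR entry, the 5 largest rises and falls in regions of both stages without overlap, the 5 widest, the highest 3, the widest ranges and the largest differences among regions of 1 stage. The lowest 3 regions were added after their values were seen. Members and lists were chosen with earlier results of these data known. PCR duplicates, and reads counted at several CpGs, make counts non-independent, so precision from depth covers counting error only. Replicate numbers did not pair the animals. No genome of this build was used, so no sequences are given.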

Additional observations from a re-analysis of the deposited data

How the results depend on the processing

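The higher levels of the span over the rest of chromosome 20 and over the other autosomes kept their direction in all 4 classes under every alternative run, except DMVs against the other autosomes with 10 reads required in each animal (-3.38 points). That setting also moved sizes. Against the rest of the chromosome it gave 9.14 (UMRs), 22 (LMRs), 3.41 (DMVs) and 3.66 points (outside), and against the other autosomes 2.62, 8.5, -3.38 and 7.35 points. It kept 545, 100, 220 and 1767 CpGs of the span, of which 467, 86, 220 and 1488 lay in the block of raised coverage. Leaving out 1 animal moved exact sign-flip permutation p to 0.0625, the smallest that 5 animals allow. The values were then 6.42 to 6.59 (UMRs), 2.59 to 2.75 (LMRs), 1.26 to 1.37 (DMVs) and 3.04 to 3.19 points (outside) against the rest of the chromosome, and 6.27 to 6.45, 1.66 to 1.95, 0.934 to 1.03 and 3.31 to 3.43 points against the other autosomes. Against the other acrocentric ends the LMR difference was 0.475 points.

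Calls in the span were 2, and 0 with 5 or 10 reads required per CpG, 0 with limma on log ratios (104 at an unadjusted p under 0.05) and 0 with edgeR's quasi-likelihood test (129), against 155 at an unadjusted p under 0.05 as reported. With 5 reads required 81, and with 10 reads 5, had an unadjusted p under 0.05, of 500 and 32 regions tested. Leaving out 1 animal gave 1 to 3. Calls on all autosomes were 40, and 20, 3 and 0 with 3, 5 and 10 reads required, 0 with limma, 8 with edgeR and 1 to 79 without 1 animal (1 without lamb 2, 6 without fetus 1, 18 without lamb 1, 67 without fetus 2, 79 without lamb 3). A replicate block gave 71 on all autosomes and the same 2 regions in the span. The numbers did not pair the animals (correlations of deviations in the span 0.0585, -0.0195 and 0.00689).

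Stage differences near 0 changed sign. UMRs of the span read -0.466 and -1.02 points with 5 and 10 reads required, and -0.02 to 0.613 without 1 animal; CpGs outside all lists -0.194 to 0.527. For the stage difference relative to the other autosomes, UMRs gave -0.0386, -0.265, -0.869 and -2.96 with 1, 3, 5 and 10 reads required, -0.000723 without CpGs of high coverage, -0.122 with equal weight per CpG and -0.234 to 0.203 without 1 animal. DMVs gave -0.0917 and -0.57 with 5 and 10 reads, and -0.0357 without the block of raised coverage. LMRs gave 1.23 with 10 reads, 0.22 with equal weight, 0.00887 with the span from 46 Mb, 0.0665 at 50% reciprocal overlap and -0.557 to 0.187 without 1 animal, and CpGs outside all lists 0.00517 from 46 Mb and -0.233 to 0.049. Relative to the rest of chromosome 20, LMRs gave 3.01 with 10 reads, 0.0735 without CpGs of high coverage, 0.219 with equal weight and -0.298 to 0.0175 without 1 animal. DMVs gave 2.47 with 10 reads, UMRs 0.209 at 50% overlap and 0.613 without the block of raised coverage (chosen after seeing the data), and CpGs outside all lists -0.313 to 0.0571. Relative to the other acrocentric ends, LMRs gave 0.0578 and DMVs 0.153. The smallest exact permutation p of these was 0.1. At 5 to 9 reads per CpG, single regions with few CpGs are imprecise.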
